A study of Danio rerio with 12 samples.

Results

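LWS2 cones, the long wavelength-sensing cones of the zebrafish retina that use the opsin gene opn1lw2 (lws2), were set against LWS cones as a whole. The comparison rests on 6 of the series' 12 bulk RNA-Seq libraries, 3 per sorted population. The LWS2 libraries came from RFP+ cells of the lws:PAC(H) line, in which a clone of the lws locus carries GFP after the lws1 promoter and RFP after the lws2 promoter. The tdTomato+ libraries came from the thrb2:tdTomato line, in which the promoter of the thyroid hormone receptor gene thrb2 drives tdTomato in LWS cones of both types. All fish were adults labelled as wild type apart from these transgenes, were of both sexes and were kept dark until collection near light onset. The other 6 libraries appear only as values set beside these. They are 3 of LWS1 cones, sorted as GFP+ from lws:PAC(H) fish, and 3 of the tdTomato- cells left from sorting thrb2:tdTomato retinas. Because each population came from its own line and was gated on its own fluorophore, line, fluorophore, gate and cone population cannot be told apart in this comparison.

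Zebrafish carry a pair of tandemly duplicated long wavelength opsin genes, opn1lw1 and opn1lw2, and an adult LWS cone mainly uses one of them, depending on its place in the retina. Cones detect light through an opsin that activates the G protein transducin, and they renew large amounts of protein in their outer segments each day. The proteasome, the barrel-shaped protease that degrades ubiquitin-tagged proteins, is built from a 20S core that cuts proteins and a 19S cap that recognises, unfolds and feeds them in.

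The number of counts per library was 2092699 to 3105062 in LWS2 and 2033038 to 2863183 in tdTomato+. Replicates of a group differed beyond sampling noise in every pair, which does not by itself show that they were independent. Each was counted as a sample. The sources do not say that the replicates came from separate fish or sorts, and the p-values therefore measure the spread between these samples only. The tdTomato+ libraries were uneven. In tdTomato+ replicate 2, 71.7% of counts came from the 13 mitochondrially encoded genes, which left 811282 other counts. tdTomato+ replicate 1 correlated with the LWS2 libraries at 0.870 to 0.884 across features and with the other tdTomato+ libraries at only 0.788 and 0.773. tdTomato+ replicates 2 and 3 correlated with each other at 0.835, and with the LWS2 libraries at 0.792 to 0.849 and 0.784 to 0.838. Each tdTomato+ library thus correlated at least as highly with some LWS2 library as with its own group. The LWS2 libraries correlated with each other at 0.918 to 0.956. Features are not independent replicates, and these correlations are a description. Counts of calls are given below with and without single tdTomato+ libraries where they changed.

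The opsins checked the sorts. opn1lw1 supplied 31.3%, 21.1% and 30.5% of the summed opn1lw1 and opn1lw2 counts in LWS2 replicates 1, 2 and 3, and 29.1%, 45.7% and 30.9% in the tdTomato+ replicates. The groups overlapped, and the difference of 27.6% ± 5.69 against 35.2% ± 9.09 (SD, n = 3 each) was not resolved (p = 0.5 by a two-sided exact permutation test, which cannot go below 0.1 with 3 against 3). LWS1 libraries held 83.2% ± 10.1 (SD, n = 3) opn1lw1 by the same measure. Together the LWS opsins took 3.02% ± 0.376 of non-mitochondrial counts in LWS2 and 3.07% ± 0.621 in tdTomato+ (SD, n = 3 each), and 0.400% ± 0.368 (SD, n = 3) in tdTomato- cells. thrb, the receptor gene that marks LWS cones, stood at 1021, 1129 and 1094 CPM (counts per 1000000, scaled by TMM over the 6 libraries) in LWS2 and at 632, 1136 and 1340 CPM in tdTomato+. Both populations thus carried their defining LWS cone markers, while the opsin counts did not set the tdTomato+ sort apart from the LWS2 sort.

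Rod RNA was found in both sorts, with higher shares in every tdTomato+ library. rho, the rod opsin gene, took 0.189%, 0.325% and 0.227% of non-mitochondrial counts in LWS2 and 0.599%, 1.39% and 0.584% in tdTomato+, so that the groups did not overlap (p = 0.1, exact permutation over libraries). Without tdTomato+ replicate 2 the tdTomato+ mean was 0.592% in place of 0.857%. In bulk libraries fewer cells of a type and less RNA per cell cannot be told apart. The 13 mitochondrial genes took 12.9%, 13.6% and 13.8% of all counts in LWS2, against 21.98%, 71.7% and 41.2% in tdTomato+ (exact permutation p = 0.1). Wilson intervals of 95% around these single-library shares were at most 1.17 percentage points wide for opn1lw1, 0.135 for the mitochondrial share and 0.0509 for rho. They cover counting error only, because reads that carry no molecular identifier need not stem from separate molecules.

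**Figure D1:**
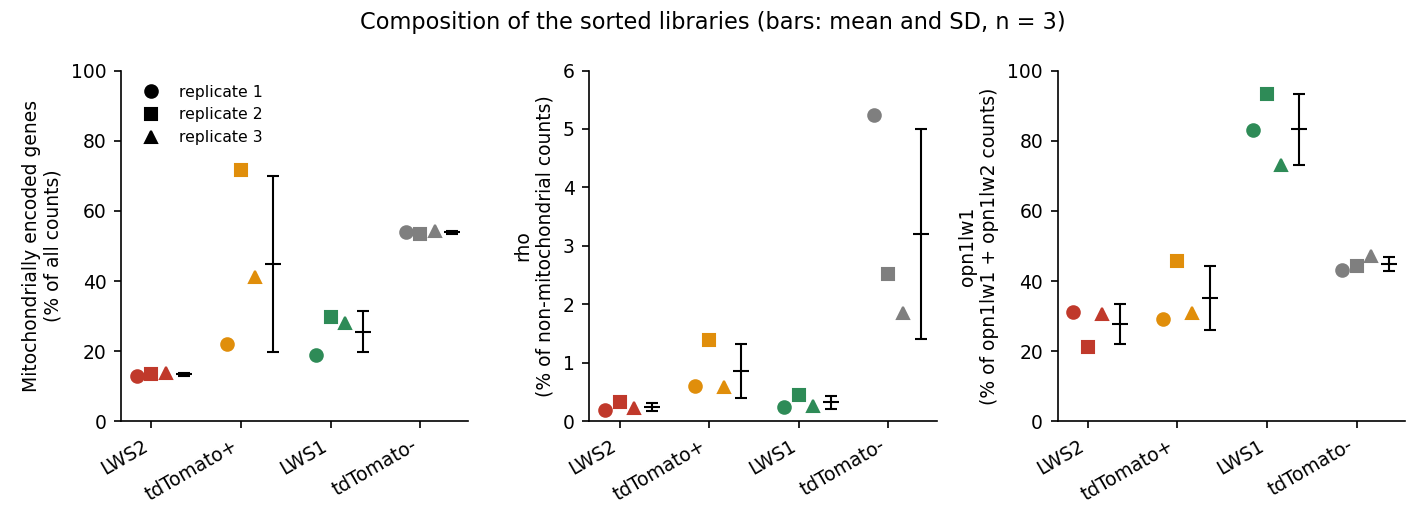
Each point is a library, in 3 panels: the share of all counts from mitochondrially encoded genes, the share of non-mitochondrial counts from rho, and the share of opn1lw1 in the summed LWS opsin counts, all in percent. Marker shapes give the replicate and black bars the mean and SD of each group (n = 3). The LWS2 libraries lie at 12.9 to 13.8% in the first panel, below every tdTomato+ library, while in the third panel LWS2 and tdTomato+ overlap and LWS1 stands above both.

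Of 9598 features tested with edgeR's quasi-likelihood test, 68 were called higher in LWS2 (0.708%) and 13 lower (0.135%), together 81 (0.844%), at a false discovery rate (FDR, Benjamini-Hochberg adjusted over all features tested) under 0.05 and a fold change above 2. The genes higher in LWS2 included 13 subunits of the proteasome, the stress-linked genes phlda3, rps27l, atf5a, atf5b, sqstm1 and txn, the chemokine gene cxcl8a, the transcription factor genes jun, nfkb2, relb, sox4a and sox11b, and the synaptic vesicle gene syt4. The genes lower in LWS2 included the UV opsin gene opn1sw1, the guanylate cyclase activators guca1e and GUCA1B and the vesicular GABA transporter gene slc32a1. Names in capitals come from a name table that uses the human orthologue's symbol, which drops the letter that separates zebrafish copies. All 81 called features had groups that did not overlap, as did 9.71% of all features tested with LWS2 above and 5.95% with LWS2 below. The median of the log2 fold changes (LWS2 over tdTomato+, used throughout) over all features was -0.06, and the median of their absolute values was 0.42.

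The number of calls turned on single libraries. Without tdTomato+ replicate 1, 242 features were called higher (2.29%) and 329 lower (3.11%), and all 81 features remained among them, while the share of calls that were higher went from 84.0% to 42.4%. Without tdTomato+ replicate 2, the mostly mitochondrial library, 8 were called higher (0.0758%) and 0 lower, with 990 of 10553 features at an unadjusted p under 0.05. Leaving out tdTomato+ replicate 3 left 14 and 2 calls, and leaving out LWS2 replicate 1, 2 or 3 left 1, 18 and 0 called higher and 0 called lower (537, 722 and 535 features at an unadjusted p under 0.05). Every one of the 81 kept its direction in all 6 of these fits. None was called in all 6, and 55 were called in 1 of them, the fit without tdTomato+ replicate 1. zgc:195170 was called in 5, and gnl3l, slc4a2a and arf3a in 4. With DESeq2 on the same features 149 were called higher and 94 lower, which included all 81. limma-voom with quality weights called 79 higher and 82 lower, with 36 of the 68 and all 13 among them, and a fit of all 4 groups called 46 and 22, with 43 of the 68 and 10 of the 13. Without the 13 mitochondrial genes the numbers were 69 and 13, with all 81 among them.

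**Figure D2:**
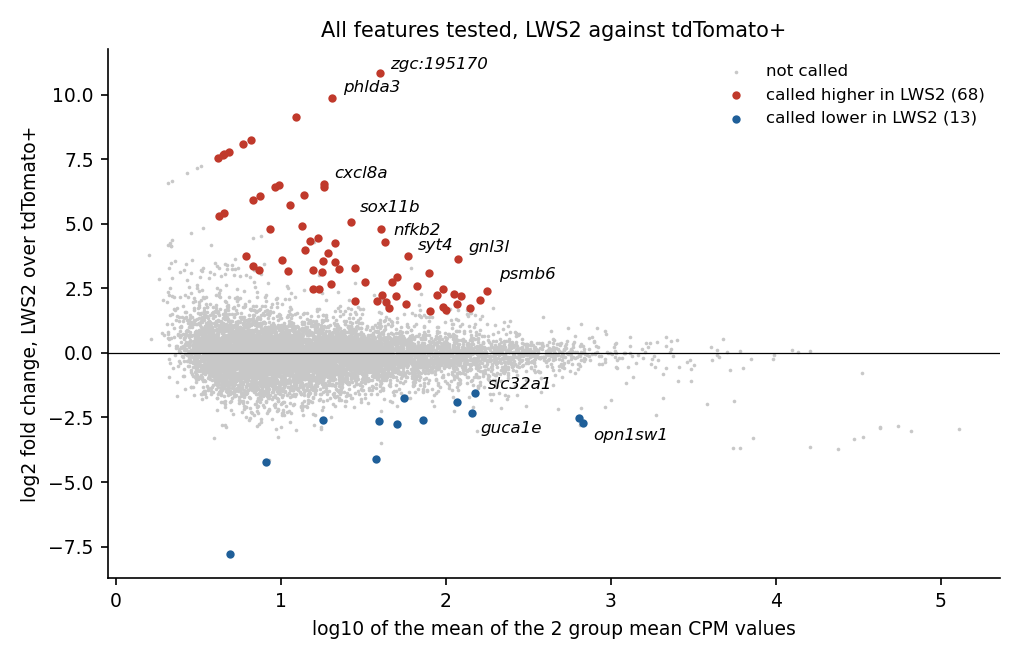
Each point is 1 of the 9598 features tested; the x axis is the log10 of the mean of both group means in CPM and the y axis the log2 fold change of LWS2 over tdTomato+. The 68 features called higher (red) spread over low and middle levels, and the 13 called lower (blue) include opn1sw1 at a high level. Points above 7 and the lowest blue point belong to features with 0 counts in every library of a group, whose fitted fold changes depend on the prior count.

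The proteasome core and cap held 13 of the 68 features called higher. All 17 features of the 20S core had positive log2 fold changes, from 1.28 to 2.38 with a median of 1.68. Every LWS2 library lay above every tdTomato+ library in all 17, against 9.71% of all features tested. Of the 17, 7 were called: psma3, psma4, psmb1, psmb2, psmb6, psmb7 and PSMA2 (ENSDARG00000035679). The other feature of that last name, psma2 (ENSDARG00000040121), was not called, at means of 92.8 CPM in LWS2 and 31.6 CPM in tdTomato+. psmb6, a catalytic subunit of the core (ENSDARG00000002240), had 322, 288 and 283 CPM in LWS2 and 69.6, 71.6 and 30.6 CPM in tdTomato+. All LWS2 libraries lay far above the tdTomato+ libraries, and the log2 fold change reached 2.38 (SE 0.37, FDR by edgeR = 0.025). psma4, a structural ring subunit (ENSDARG00000045928), had 195, 183 and 180 CPM against 37.2, 45.4 and 32.2 CPM (log2 fold change 2.29, SE 0.29, edgeR FDR = 0.015). psmb1 had 205, 188 and 216 CPM against 62.7, 42.8 and 26.9 CPM, and psmb2 198, 165 and 194 CPM against 64.2, 41.9 and 43.3 CPM. The 10 core features not called had FDR values of 0.071 for psmb3 up to 0.373 for psma5.

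In the 19S cap the ATPases, which unfold the substrate, had the same direction, with 0 called by edgeR, 7 of 8 by DESeq2, 6 by limma-voom and 7 by edgeR without tdTomato+ replicate 1. All 8 were positive with a median of 1.42. Of the 8, 7 did not overlap and 7 had an unadjusted p under 0.05. Over all features tested the shares in that direction were 9.71% and 4.93%. psmc1b had 85.9, 72.8 and 86.6 CPM in LWS2 and 32.1, 6.99 and 12.7 CPM in tdTomato+ (log2 fold change 2.19, SE 0.48, edgeR FDR = 0.080), and PSMC6 had a log2 fold change of 1.37 (edgeR FDR = 0.087). The other psmc4 feature, ENSDARG00000109415, was the one whose groups overlapped. psma2, psmb5, psmc4, psmd2 and adrm1 each had a pair of features under 1 name, letter case aside. The reads of those genes may therefore have been split between copies, and their values are uncertain.

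Of the 21 non-ATPase features of the cap, 6 were called: psmd1, psmd3, psmd4b, psmd7, psmd13 and adrm1. psmd13 (ENSDARG00000016239) had 135, 162 and 144 CPM in LWS2 against 35.0, 24.4 and 32.8 CPM in tdTomato+ (log2 fold change 2.24, SE 0.30, edgeR FDR = 0.016). psmd7, which anchors the deubiquitinase of the cap, had 162, 121 and 162 CPM against 41.9, 47.2 and 41.7 CPM (log2 fold change 1.77, SE 0.29, edgeR FDR = 0.025). adrm1, a ubiquitin receptor of the cap (ENSDARG00000058560), had 66.0, 62.6 and 56.1 CPM against 17.1, 12.2 and 15.8 CPM, and psmd3 had 167, 142 and 152 CPM against 55.0, 47.2 and 41.7 CPM. The highest value of the list, 2.76 for psmd10, missed the cutoff (edgeR FDR = 0.330; named after its value had been seen). The low exceptions were PSMD2 (ENSDARG00000103190) at a log2 fold change of -0.46 and PSMD9 at 0.16, neither called. In PSMD2, tdTomato+ replicate 3 held 74.0 CPM where the other tdTomato+ libraries held 13.1 and 14.0 CPM.

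Over core and cap, 45 of 46 features were positive, and the median log2 fold change of 1.55 corresponded to 2.92-fold. Of the 46, 41 did not overlap with LWS2 above, against 9.71% of all features tested. Summed over the 46, the LWS2 libraries had 6115, 5490 and 5815 CPM and the tdTomato+ libraries 2729, 1627 and 1365 CPM. tdTomato+ replicate 1 was the highest of its group in 37 of the 46. The number called was 13, became 39 without tdTomato+ replicate 1, 3 without tdTomato+ replicate 3 and 0 without any of the other 4 libraries, and was 32 with DESeq2. In these fits 44 or more of the 46 stayed positive and the median stayed between 1.39 and 1.90. On the scale of all 12 libraries the 46 features summed to 5322 ± 317 CPM in LWS2, 1740 ± 694 CPM in tdTomato+, 1876 ± 300 CPM in LWS1 and 2005 ± 355 CPM in tdTomato- (SD, n = 3 each). On this scale LWS1 cones stood near the level of both thrb2:tdTomato populations and below every LWS2 library. LWS1 and LWS2 came from the same line but were sorted on different fluorophores, GFP and RFP. The study already reported that proteasome components dominated its list of transcripts higher in LWS2 cones than in all LWS cones. They were also abundant in its list against LWS1 cones. It offers misfolding or aggregation of this RFP as a possible reason for proteasome transcripts in LWS2 cones. No cause was tested here.

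**Figure D3:**
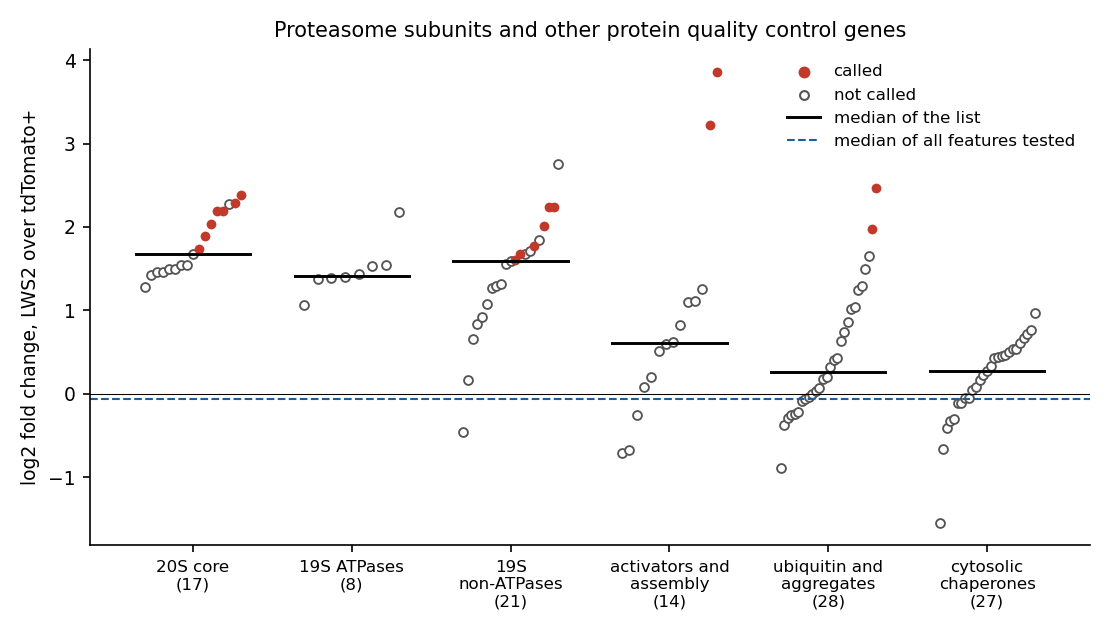
Each point is a feature, placed by its log2 fold change of LWS2 over tdTomato+ on the y axis and by its list on the x axis, with the number of features tested in brackets; filled points were called. All 17 core features and all 8 ATPase features lie above 1, around medians of 1.68 and 1.42, whereas the chaperone list centres on 0.27, near the median of -0.06 over all features.

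Among the proteasome activators and assembly factors 2 of 14 were called by edgeR and 0 by limma-voom. Without tdTomato+ replicate 1, 4 of the 14 were called, against 2.29% of all features called higher in that fit. The number was 1 without tdTomato+ replicate 3 and 0 without tdTomato+ replicate 2. psme1, a subunit of the 11S activator that opens the core (ENSDARG00000002165), had 46.4, 25.2 and 37.1 CPM in LWS2 and 2.19, 2.62 and 2.64 CPM in tdTomato+ (log2 fold change 3.86, SE 0.48, edgeR FDR = 0.015). psmg2, a chaperone of core assembly, had 13.8, 10.9 and 15.3 CPM against 1.46, 1.75 and 1.06 CPM (log2 fold change 3.22, SE 0.57, edgeR FDR = 0.032). nfe2l1b, which encodes a transcription factor known in mammals to raise proteasome genes, had 96.8, 81.8 and 94.8 CPM against 46.3, 37.5 and 41.7 CPM and did not pass the cutoff (log2 fold change 1.12, edgeR FDR = 0.129); it was named after its values had been seen. The immunoproteasome list had 1 feature tested, PSMB10, at a log2 fold change of 1.56 (edgeR FDR = 0.204). Both PSME4 features, for another activator, had negative values of -0.71 and -0.67 with LWS2 below tdTomato+ in every library, and neither was called.

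Other protein quality control lists held few calls. In the list of ubiquitin and aggregate handling 2 of 28 were called, both higher. sqstm1, which encodes the autophagy receptor p62, had 187, 114 and 191 CPM in LWS2 against 39.0, 28.8 and 20.6 CPM in tdTomato+ (log2 fold change 2.47, SE 0.36, edgeR FDR = 0.022), and USP5, a deubiquitinase that disassembles free ubiquitin chains, had 76.9, 63.3 and 68.6 CPM against 16.04, 17.46 and 19.5 CPM (log2 fold change 1.98, SE 0.31, edgeR FDR = 0.025). The list's median was 0.26, and 10 of the 28 had an unadjusted p under 0.05 with LWS2 higher, against 4.93% of all features. Of 27 cytosolic chaperones 2 were higher and 1 lower at an unadjusted p under 0.05, against 4.93% and 5.11% of all features. None of the 27 was called by edgeR, DESeq2 or limma-voom, and their median was 0.27. Their smallest p values belonged to CCT3 (log2 fold change 0.76, edgeR FDR = 0.363) and hsp90aa1.1 (-1.55, edgeR FDR = 0.450). None of 23 autophagy and lysosome features was called by edgeR either (3 higher and 0 lower at an unadjusted p under 0.05; 1 called higher by DESeq2 and 1 by limma-voom), with the cathepsin gene ctsba at 1.83 (edgeR FDR = 0.129). Without tdTomato+ replicate 1, 7 of the 28 ubiquitin features, 2 chaperones and 2 autophagy features were called, all higher, against 2.29% of all features. Without tdTomato+ replicate 2 or 3 none of these lists had a call.

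In the cell death and damage response list 3 of 17 features were called by edgeR, all higher, 0 by limma-voom, 0 without tdTomato+ replicate 2 and 0 without tdTomato+ replicate 3. phlda3, a gene that restrains Akt signalling in mammals (ENSDARG00000037804), had 149, 71 and 228 counts in the LWS2 libraries and none in tdTomato+, which against a floor of 3 counts in each tdTomato+ library is at least 23.3-fold higher (edgeR FDR = 0.016). aifm4, of the apoptosis-inducing factor family, had 34, 32 and 32 counts against 0, at least 5.17-fold higher (edgeR FDR = 0.032). rps27l, a ribosomal protein gene, had 56.9, 21.8 and 43.3 CPM against 2.55, 3.49 and 0.53 CPM (log2 fold change 4.25, SE 0.64, edgeR FDR = 0.023). Of the 17 features 10 were positive and 7 negative, down to a log2 fold change of -1.355, and the list's median was 0.09. The 14 features other than phlda3, aifm4 and rps27l were not called. mdm2, which encodes a ubiquitin ligase, was among these at a log2 fold change of 0.73 (edgeR FDR = 0.581) and was named after its value had been seen.

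In the list of unfolded protein and integrated stress response genes 2 of 36 were called by edgeR (0 by limma-voom, 0 without tdTomato+ replicate 2 and 0 without replicate 3), the paralogs atf5a and atf5b, which encode transcription factors of the integrated stress response. atf5a had 57.7, 28.4 and 35.6 CPM in LWS2 and 4.01, 7.86 and 1.58 CPM in tdTomato+ (log2 fold change 3.25, SE 0.57, edgeR FDR = 0.032), and atf5b had 25.7, 8.98 and 21.2 CPM against 0.729, 2.62 and 1.58 CPM (log2 fold change 3.61, SE 0.68, edgeR FDR = 0.041). In both genes all LWS2 libraries lay above all tdTomato+ libraries, and LWS2 replicate 2 was the lowest of its group. ATF3, of the same response, had 38.8, 12.1 and 45.6 CPM against 1.46, 7.86 and 2.64 CPM and missed the cutoff (log2 fold change 3.15, edgeR FDR = 0.091). The list's median was 0.43, with 26 features positive and 10 negative, down to a log2 fold change of -1.86. At an unadjusted p under 0.05, 7 of the 36 were higher and 2 lower, against 4.93% and 5.11% of all features.

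In the list of iron and oxidative stress genes the calls were txn and keap1a. txn, the thioredoxin gene (ENSDARG00000044125), had 99.7, 73.0 and 95.7 CPM in LWS2 against 6.20, 19.2 and 11.1 CPM in tdTomato+ (log2 fold change 2.94, SE 0.43, edgeR FDR = 0.022). keap1a, whose product holds the antioxidant regulator Nrf2 in check, had 20, 31 and 45 counts against 1, 0 and 0, a ratio of 49.3 with a counting interval of 8.63 to 1966 (edgeR FDR = 0.032). Of the 27 features tested, 2 were thus called and 10 had an unadjusted p under 0.05, all higher in LWS2, against 4.93% of all features in that direction. The peroxiredoxin gene prdx1 and the ferritin genes fthl31 and fthl27 missed the cutoff at log2 fold changes of 3.22, 3.27 and 1.64 (edgeR FDR = 0.057, 0.057 and 0.074). These were named after their values had been seen. Another feature of that name, PRDX1 (ENSDARG00000025350), averaged 177 CPM in LWS2 and 194 CPM in tdTomato+, against 12.55 and 1.47 CPM for prdx1. The ferritin genes fth1a and FTH1 averaged 1209 and 54.5 CPM in LWS2 and 935 and 71.2 CPM in tdTomato+. Of the 27 features, 17 were positive and 10 negative, with a median log2 fold change of 0.20. Without tdTomato+ replicate 1, 8 of the 27 were called higher, against 2.29% of all features in that fit. Without tdTomato+ replicate 2 only txn was called, and without tdTomato+ replicate 3 none was.

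Of genes of inflammatory signalling, cxcl8a, nfkb2 and relb were called higher. cxcl8a, the interleukin 8 chemokine gene (ENSDARG00000104795), had 135, 51 and 211 counts in LWS2 against 0, 0 and 2 in tdTomato+, a ratio of 102 with a counting interval of 28.0 to 844 (edgeR FDR = 0.023). Of the NF-kB family, nfkb2 had 95.4, 56.3 and 85.9 CPM against 6.20, 0.873 and 0 CPM (log2 fold change 4.81, SE 0.76, edgeR FDR = 0.025), and relb, whose product partners with that of nfkb2, had 71.1, 47.1 and 51.0 CPM against 8.39, 6.11 and 10.04 CPM (log2 fold change 2.76, SE 0.38, edgeR FDR = 0.017). Their inhibitor genes nfkbib, nfkbiaa and nfkbiab stood at log2 fold changes of 1.74, 2.43 and 0.15, none called with all 6 libraries (edgeR FDR = 0.105, 0.450 and 0.924). Without tdTomato+ replicate 1 nfkbib was called (edgeR FDR = 0.032), and without tdTomato+ replicate 2 nfkbiaa was (edgeR FDR = 0.040). In the fit without tdTomato+ replicate 2, cxcl8a, nfkb2 and relb were not called (edgeR FDR = 0.084, 0.103 and 0.065). nfkb1, RELA and REL had too few counts to be tested. The members of this family were named after their values had been seen. jun, a subunit of the AP-1 transcription factor, had 139, 82.7 and 121 CPM in LWS2 against 10.6, 33.2 and 15.8 CPM (log2 fold change 2.57, SE 0.45, edgeR FDR = 0.032). It was the single call by edgeR among 16 immediate early features, whose median was -0.60. In the same list ier2b, NR4A1, NR4A3 and klf2b had an unadjusted p under 0.05 in the opposite direction, at log2 fold changes of -1.15, -1.64, -1.70 and -1.69, and edgeR called none of them (1 feature of the list was called lower by DESeq2 and 1 by limma-voom). Without tdTomato+ replicate 1, ier2b and NR4A3 were called lower (edgeR FDR = 0.026 and 0.040), and without tdTomato+ replicate 2 or 3 no feature of the list was called. The microglia marker list summed to 38.4, 121 and 59.0 CPM in LWS2 and 15.9, 118 and 10.9 CPM in tdTomato+ on the 12-library scale. Of 3 features tested 0 were called, with cd74a at a log2 fold change of 1.13 (edgeR FDR = 0.699) and cd74b at 0.52 (edgeR FDR = 0.880). This list had a median of 0.52, and leaving out 1 library gave -0.12 to 2.66, the highest without tdTomato+ replicate 2. Of its 16 features, 2 had 0 counts in all LWS2 libraries and 4 in all tdTomato+ libraries; its part in cxcl8a and the NF-kB genes was not tested.

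**Figure D4:**
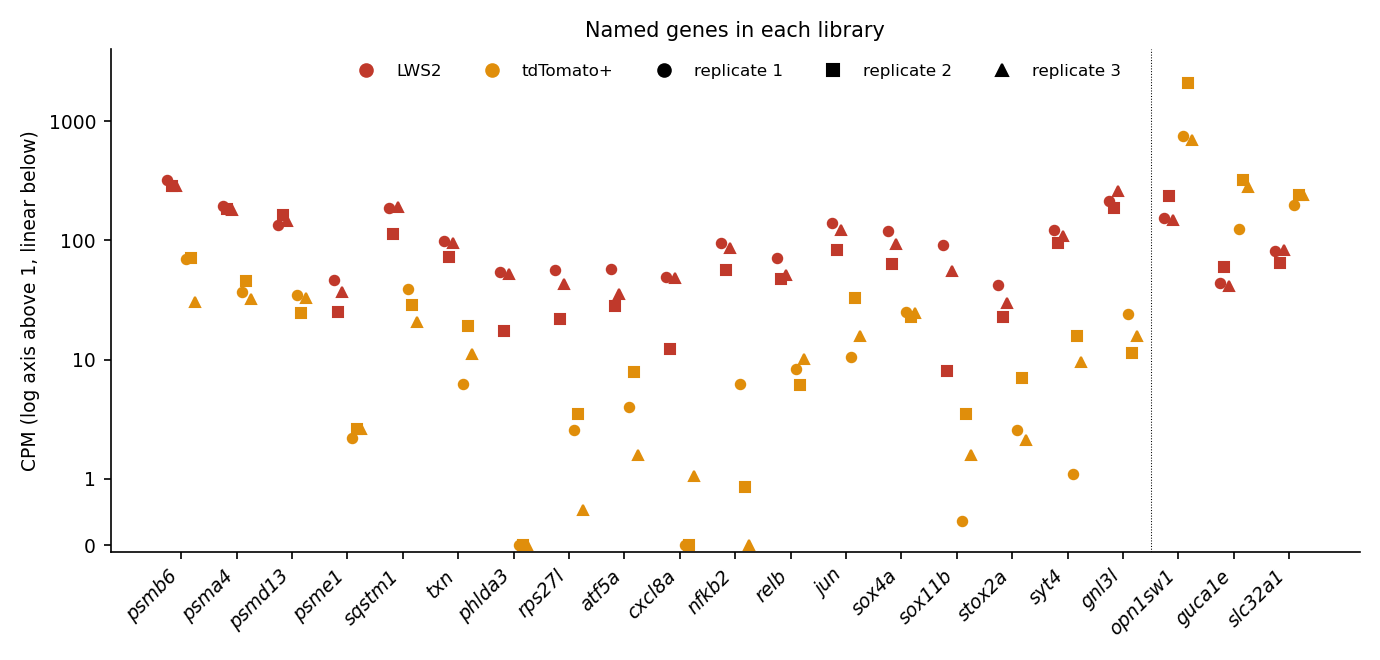
Each column is a gene and each point a library, in CPM on an axis that is logarithmic above 1 and linear below; colours give the population and shapes the replicate. To the left of the dotted line every LWS2 point lies above every tdTomato+ point, with sox11b in LWS2 replicate 2 (8.01 CPM) the closest to the tdTomato+ range, and to the right, for opn1sw1, guca1e and slc32a1, the order is reversed.

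Of 34 regulators of LWS cones and photoreceptors, 2 were called higher. Without tdTomato+ replicate 1, 4 of the 34 were called higher and 4 lower, against 2.29% and 3.11% of all features. Without tdTomato+ replicate 2 or 3 none of the 34 was called. sox4a, a SoxC transcription factor gene (ENSDARG00000004588), had 119, 62.8 and 92.5 CPM in LWS2 and 25.2, 22.7 and 24.8 CPM in tdTomato+ (log2 fold change 1.91, SE 0.34, edgeR FDR = 0.032). stox2a, of the storkhead box family, had 42.1, 22.6 and 30.1 CPM against 2.55, 6.98 and 2.11 CPM (log2 fold change 3.12, SE 0.56, edgeR FDR = 0.032). sox11b, another SoxC gene that was named after its values had been seen, spread more widely, with 92.1, 8.01 and 55.6 CPM against 0.365, 3.49 and 1.58 CPM (log2 fold change 5.06, SE 0.98, edgeR FDR = 0.048). The nuclear receptor gene nr2f2 had 129, 72.5 and 96.2 CPM against 65.6, 38.4 and 43.8 CPM, without overlap and without a call (log2 fold change 1.00, edgeR FDR = 0.330). thrb stood at 0.06 (edgeR FDR = 0.976), and the nuclear receptor cofactor nrip1a at -1.21 (edgeR FDR = 0.565), with 20.7, 10.4 and 15.5 CPM in LWS2 and 7.66, 41.0 and 59.7 CPM in tdTomato+, where replicate 1 lay below every LWS2 library. Of the 34, 6 did not overlap with LWS2 above and 5 with LWS2 below, against 9.71% and 5.95% of all features tested. Those below included foxq2, SAMD11 and SOX6 at log2 fold changes of -1.97, -1.35 and -0.96, none called. These genes were named after their values had been seen. In the fit without tdTomato+ replicate 1, nrip1a and nr2f2 had an FDR under the cutoff (edgeR FDR = 0.033 and 0.048).

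Among 47 cone phototransduction features 7 were called lower by DESeq2, against 94 of 9598 over all features. Without tdTomato+ replicate 1 edgeR called 3 of the 47 higher and 4 lower, against 2.29% and 3.11% of all features. It called 0 without tdTomato+ replicate 2 or 3. With all 6 libraries edgeR called 1, guca1e, which encodes a calcium sensor that regulates guanylate cyclase (ENSDARG00000101567), with 43.5, 59.7 and 41.2 CPM in LWS2 and 124, 318 and 279 CPM in tdTomato+ (log2 fold change -2.31, SE 0.39, edgeR FDR = 0.032). GUCA1B, outside the list and of the same sensor family, had 11.97, 28.6 and 20.7 CPM against 103, 199 and 75.02 CPM (log2 fold change -2.60, SE 0.46, edgeR FDR = 0.032). The median of the 47 was -0.24, with 13 lower and 1 higher at an unadjusted p under 0.05, against 5.11% and 4.93% of all features. The single higher one was the calmodulin gene calm1b at 1.18 (edgeR FDR = 0.212, and 0.041 without tdTomato+ replicate 1). This list shares PDE6G and gucy2d with the rod list below, at log2 fold changes of -2.19 and 0.00032. Which cell types the lower features came from was not tested. The cone transducin gamma gene gngt2a (ENSDARG00000010680) had 2066, 1581 and 1594 CPM in LWS2 and 2860, 2492 and 1039 CPM in tdTomato+, with overlapping groups and a log2 fold change of -0.29 (edgeR FDR = 0.882). Its paralog gngt2b stood at -0.24 (edgeR FDR = 0.886), the cone arrestin gene arr3a at 0.10 (edgeR FDR = 0.974) and LOC562466 at 0.02 (edgeR FDR = 0.995). Of the opsins themselves, opn1lw1 (ENSDARG00000044862) had 5399, 2711 and 4104 CPM against 4242, 9927 and 5157 CPM (log2 fold change -0.66, SE 0.44, edgeR FDR = 0.667), and opn1lw2 (ENSDARG00000044861) had 10557, 9179 and 8683 CPM against 9103, 11178 and 9886 CPM (log2 fold change -0.09, SE 0.36, edgeR FDR = 0.971). Each opsin has a further feature, at 0.01 for opn1lw1 and 0.22 for opn1lw2, and reads of these near-identical genes may have been assigned across copies.

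Among markers of other photoreceptors, 1 of 6 features of the other cone opsins was called. opn1sw1, the UV opsin gene, had 153, 235 and 149 CPM in LWS2 and 755, 2076 and 693 CPM in tdTomato+ (log2 fold change -2.71, SE 0.48, edgeR FDR = 0.032), and on the 12-library scale it averaged 10492 CPM in tdTomato- cells. The blue opsin gene opn1sw2 had 633, 1494 and 777 CPM against 4917, 2809 and 1918 CPM without a call (log2 fold change -1.73, edgeR FDR = 0.168). The green opsin gene opn1mw1 was dominated by 1 library, at 3028 CPM in tdTomato+ replicate 1 against 134 and 273 CPM in the other replicates and 261, 21.6 and 217 CPM in LWS2. Of 16 rod features none was called by edgeR, 6 were called lower by DESeq2 and 7 by limma-voom, 13 had an unadjusted p under 0.05 with LWS2 lower against 5.11% of all features, and the median was -1.51. rho had 1252, 2045 and 1383 CPM against 4747, 9823 and 3689 CPM (log2 fold change -1.96, SE 0.45, edgeR FDR = 0.096). PDE6G, of the rod phosphodiesterase, stood at -2.19 (edgeR FDR = 0.076) and ROM1, an outer segment disc rim gene, at -2.13 (edgeR FDR = 0.091). Without tdTomato+ replicate 1, 8 of the 16 rod features were called lower, against 3.11% of all features. With tdTomato+ replicate 2 left out none of the 16 was, and their median was -0.96. Summed rod markers on the 12-library scale were 3292 to 4701 CPM in LWS2, 7199 to 16248 CPM in tdTomato+ and 17977 to 44224 CPM in tdTomato-. Of the 18 symbols in the rod list 16 matched a feature, so rod genes may also lie outside it. GNG11, a G protein gamma subunit gene outside that list (ENSDARG00000035798), had 121, 263 and 186 CPM in LWS2, 1027, 1674 and 587 CPM in tdTomato+ (log2 fold change -2.52, SE 0.45, edgeR FDR = 0.032), and an average of 1642 CPM in tdTomato- cells. The part that rod and UV cone RNA had in the features lower in LWS2 was not tested.

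slc32a1, the vesicular GABA transporter gene, which stood in the amacrine marker list (ENSDARG00000059775), was lower in LWS2 at 82.0, 65.0 and 83.6 CPM against 199, 238 and 238 CPM in tdTomato+ (log2 fold change -1.55, SE 0.28, edgeR FDR = 0.032). The other 9 amacrine features tested were not called, and GAD1 and GAD2, which make GABA, stood at log2 fold changes of 0.43 and 0.44 with wide spread. tdTomato- cells averaged 18.6 CPM of slc32a1 against 204 CPM in tdTomato+ on the 12-library scale, so in these libraries it did not mark the cells outside the tdTomato+ sort. Müller glia markers, 10 features with a median of -0.13, were not called in either direction (0 at an unadjusted p under 0.05). That median changed sign with the libraries used, at 1.01 without tdTomato+ replicate 2 and -0.57 without tdTomato+ replicate 1. Their sum was 469, 1142 and 690 CPM in LWS2 and 185, 1516 and 589 CPM in tdTomato+. Bipolar, horizontal, ganglion, pigment epithelium and blood or vessel markers had 1 to 5 features tested each and no call by edgeR, with 1 bipolar feature called lower without tdTomato+ replicate 1; of these 16 features, RPE65 and rlbp1b had an unadjusted p under 0.05, at log2 fold changes of -2.09 and -1.82.

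In the synapse list 1 of 32 features was called, with 2 more called lower without tdTomato+ replicate 1 and 0 called without tdTomato+ replicate 2 or 3. syt4, which encodes a synaptotagmin of regulated vesicle release (ENSDARG00000036505), had 123, 95.1 and 110 CPM in LWS2 and 1.09, 15.7 and 9.51 CPM in tdTomato+ (log2 fold change 3.76, SE 0.65, edgeR FDR = 0.032). In counts, the 3 LWS1 libraries had 2, 1 and 2. snap25a had 77.2, 51.7 and 77.0 CPM against 22.6, 172 and 60.8 CPM and overlapped (log2 fold change -0.29, edgeR FDR = 0.927). Of 38 circadian clock features none was called by edgeR, 3 were called lower by DESeq2 and 5 by limma-voom, and 6 were lower and 0 higher at an unadjusted p under 0.05. The clock genes with the smallest p were PER2, with 73.3, 48.5 and 45.6 CPM against 63.8, 317 and 329 CPM (log2 fold change -2.08, edgeR FDR = 0.145), and csnk1db at -1.06 (edgeR FDR = 0.148). In PER2, tdTomato+ replicate 1 lay within the LWS2 range and the other tdTomato+ replicates far above it. Without that library 6 clock features were called lower. Of 45 cilium and outer segment features none was called by edgeR, and 2 were called lower by DESeq2 and 2 by limma-voom. Of the 45, 1 was higher and 5 lower at an unadjusted p under 0.05, and ift27 stood at 0.65 (edgeR FDR = 0.748). Without tdTomato+ replicate 1 edgeR called 5 of the 45 lower. Over all 9598 features DESeq2 called 94 lower and limma-voom 82. At an unadjusted p under 0.05, 4.93% of all features were higher and 5.11% lower. edgeR without tdTomato+ replicate 1 called 3.11% of all features lower.

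The 13 mitochondrially encoded genes, the respiratory chain subunits made within the organelle, had the lowest median of any list, -3.25. Every LWS2 library lay below every tdTomato+ library in all 13, against 5.95% of all features tested. None passed the cutoff with edgeR, while DESeq2 and limma-voom each called all 13: ND3 had 1294, 1326 and 1387 CPM in LWS2 and 5102, 28102 and 6643 CPM in tdTomato+ (log2 fold change -3.31, SE 0.66, edgeR FDR = 0.052), and all 13 had an unadjusted p under 0.05. Without tdTomato+ replicate 1 all 13 were called lower, and with tdTomato+ replicate 2 left out none was and the median was -1.955. ND6 had a log2 fold change of -3.03 (edgeR FDR = 0.071). The share of mitochondrial counts in tdTomato+, with 71.7% in replicate 2, is the same measurement seen from the library's side.

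**Figure D5:**
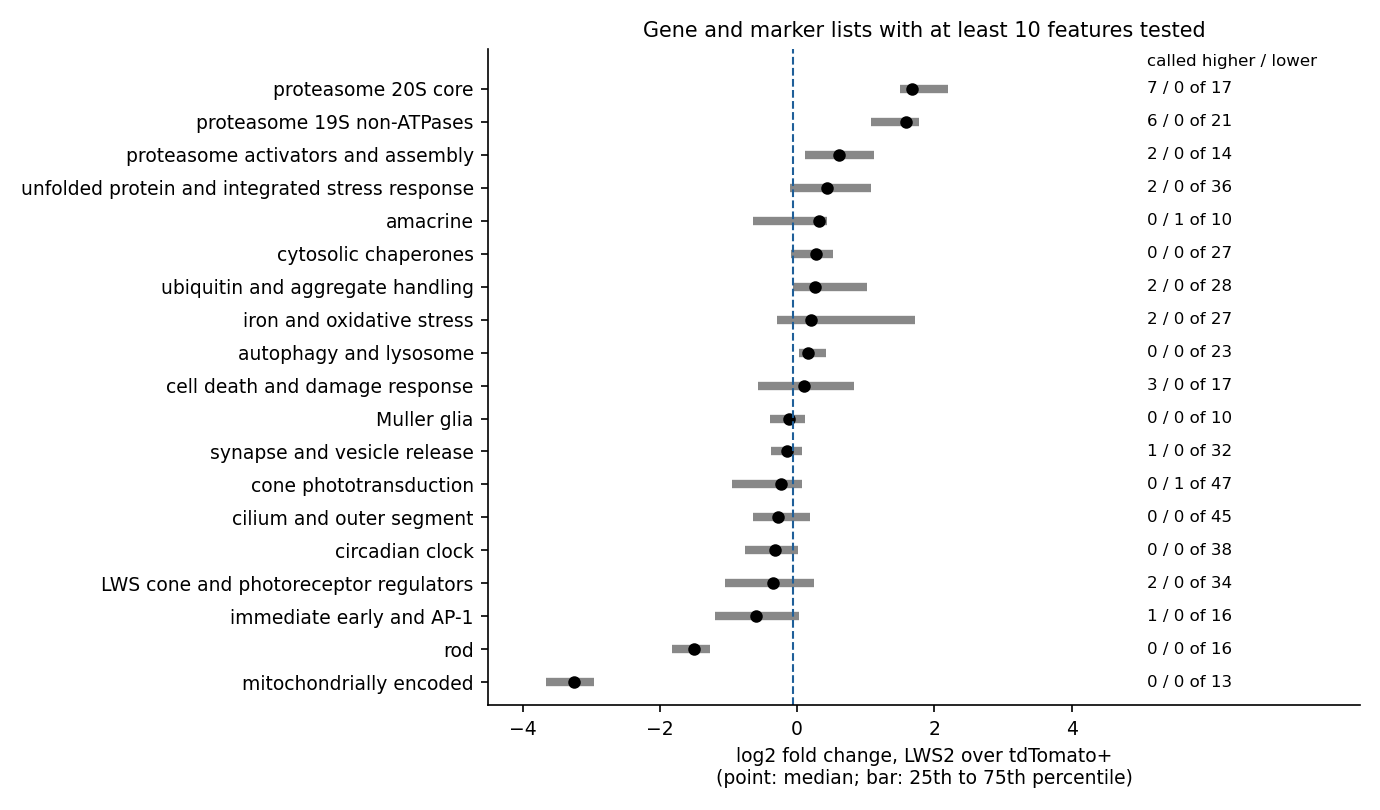
Each row is a list with at least 10 features tested; the point is the median log2 fold change of LWS2 over tdTomato+, the grey bar runs from the 25th to the 75th percentile, and the dashed line is the median of all features. The numbers at the right are features called higher, called lower and tested. The proteasome core and non-ATPase lists sit highest, at 1.68 and 1.59, and the rod and mitochondrial lists lowest, at -1.51 and -3.25.

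Of the 68 features, 9 had no count at all in tdTomato+, so that their fold changes can be given only as lower bounds. zgc:195170 (ENSDARG00000076264), whose role is not given by its name, had 126, 353 and 473 counts in LWS2 and 0 in all tdTomato+ libraries, at least 45.1-fold higher (edgeR FDR = 0.0080). In the LWS1 libraries it had 86, 69 and 40 counts and in the tdTomato- libraries 0, so that reads were found in each library of the lws:PAC(H) line and in no library of the thrb2:tdTomato line. arf3a, a small GTPase gene of vesicle traffic, had 66, 73 and 143 counts against 0, at least 14.0-fold higher, and OSBPL1A, an oxysterol-binding protein gene, 38, 50 and 60 counts, at least 7.47-fold higher. rab36 and si:ch211-80h18.1 were at least 5.07-fold and 4.72-fold higher, and the unnamed ENSDARG00000110227 and ENSDARG00000110063 at least 6.67-fold and 5.49-fold. Among features with counts in both groups, gnl3l, a nucleolar GTPase gene (ENSDARG00000020595), had 216, 185 and 258 CPM against 24.1, 11.4 and 15.8 CPM (log2 fold change 3.65, SE 0.36, edgeR FDR = 0.0080). slc4a2a, an anion exchanger gene, had 80, 89 and 138 counts against 1, 1 and 0, a ratio of 78.8 with a counting interval of 21.6 to 653, and ENSDARG00000109309 had 126, 115 and 183 CPM against 22.2, 10.5 and 16.4 CPM.

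In the opposite direction ENSDARG00000111996 had 0 counts in every LWS2 library and 19, 20 and 10 in tdTomato+, at least 11.9-fold higher in tdTomato+ (edgeR FDR = 0.032). AUTS2 (ENSDARG00000020946) had 11.97, 15.04 and 11.6 CPM in LWS2 against 36.1, 105 and 123 CPM (log2 fold change -2.76, SE 0.46, edgeR FDR = 0.031), and CRIP2, a LIM domain protein gene, 4.35, 6.07 and 4.79 CPM against 32.8, 29.7 and 30.6 CPM (log2 fold change -2.60, SE 0.41, edgeR FDR = 0.025). The unnamed ENSDARG00000091187 had a log2 fold change of -2.65 (edgeR FDR = 0.025), si:ch211-281l24.3 of -4.12 (edgeR FDR = 0.032) and si:ch211-236p5.3 of -4.23 (edgeR FDR = 0.025), the last from 1, 4 and 4 counts against 27, 28 and 24. Each of the 13 lower calls was lost without tdTomato+ replicate 2 (edgeR FDR = 0.065 to 0.144) and held without tdTomato+ replicate 1. All 13 were also lost without LWS2 replicate 1, 2 or 3, and 1 of the 13 was kept without tdTomato+ replicate 3.

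Set beside the remaining populations on the 12-library scale, the features called between LWS2 and tdTomato+ did not share one order; those in the following sentences were chosen after their values had been seen. For some, LWS1 stood near LWS2: paplna averaged 75.6 CPM in LWS2, 63.5 in LWS1, 11.0 in tdTomato+ and 7.38 in tdTomato-, and the annexin gene anxa14 averaged 25.9, 23.3, 2.94 and 0.138 CPM in the same order. For others LWS1 stood near tdTomato+, with psmb6 at 273 CPM in LWS2, 56.0 in LWS1, 52.2 in tdTomato+ and 83.2 in tdTomato-, and syt4 at 100.1, 1.60, 7.90 and 7.29 CPM. Of the lower features, si:dkey-61n16.5 averaged 45.5 CPM in LWS2 and 185, 168 and 136 CPM in LWS1, tdTomato+ and tdTomato-. The comparisons of LWS2 and LWS1 with tdTomato+ would share the tdTomato+ libraries, and no test was made across them.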

How the data were processed

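Sorted retinal cells were profiled by poly-A RNA-Seq, with 3 libraries per group. The authors deposited a matrix of raw, un-normalized counts for 30258 features, and per the labels the processing used Trimmomatic 0.36, Salmon 0.13.1, STAR, tximport and GRCz11; which of the aligners gave the counts is not given in the sources used here. Tables of the authors' own comparisons hold fold changes and p-values and were not used, and neither were 12 further columns of per-sample values. Names came from those tables for 1010 features and from a gene name table for 22639, and 6609 have none.

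Features that passed filterByExpr were scaled by TMM and tested with edgeR 4.0.16 (R 4.3.3, quasi-likelihood test, no covariate, LWS2 and tdTomato+ libraries only), with Benjamini-Hochberg adjustment over all 9598 tested. A call needed an FDR under 0.05 and a fold change over 2. Totals were 2033038 to 3105062 counts per library. Shares were compared by exact permutation (scipy 1.17.1). A group at 0 counts was given a floor of 3 counts per library, and 1 to 3 summed counts an exact counting interval of 95%. Fits were tested on simulated counts in which 200 of 9598 features were changed. Each feature had the same dispersion in every simulated library, unlike the uneven tdTomato+ libraries. Both cutoffs applied, and a simulated log2 fold change of 1 lies at the fold cutoff itself, which limits the share that can be called. edgeR called 0% of changes at a log2 fold change of 1 and 36% at 2. DESeq2 called 3% and 48.5%. A feature or list without calls may therefore still differ between the groups.

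Named are, in each direction, the 10 called features with the largest fold change and no overlap and the 5 with the smallest p; the called members of each list (up to 4 by p in each direction) or, where none was called, the 2 with the smallest p; and genes that the study names or that check the sort. Other genes were named after their values had been seen, and not every one of them is marked so in the text. The members and the 19 gene lists and 10 marker lists were chosen with earlier results of these data known. The 16 alternatives comprised DESeq2 1.42.0, limma 3.58.1 (voom with quality weights), other scaling, filters, samples and a block, and leaving out each library. A result on 1 gene is not reported here.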

Additional observations from a re-analysis of the deposited data

How the results depend on the processing

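All 81 called features kept their direction in every alternative that tested them. With DESeq2, 149 features were higher, 94 lower and 85 list members called, and with voom weights 79 were higher, 82 lower and 75 list members called. Of the 68 higher calls voom kept 36. Those it lost included phlda3, rps27l, aifm4, atf5a, atf5b, psme1 and psmg2 (FDR = 0.052 to 0.283). No filter on low counts gave 198, 156 and 92, and all 4 groups in 1 fit gave 46 higher and 22 lower. Leaving out 1 library gave 0 to 242 higher, 0 to 329 lower and 0 to 111 list members; fewer samples entered each of these fits, and the cause of the range was not tested. Of the calls, 84.0% were higher in LWS2, 61.3% with DESeq2, 49.1% with voom weights, 55.9% with no filter and 67.6% with all 4 groups. Same-numbered LWS2 and tdTomato+ libraries deviated together at correlations of 0.215, 0.128 and -0.017, so the number was not taken as a pairing; with a replicate block 129 were higher, 56 lower and 72 list members called (69.7% higher), and 119, 41 and 56 when mitochondrial genes were also left out. With all counts as denominator the rho share differed by -0.188 percentage points.

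Changes of sign met only features that were not called, in log2 fold changes. With the replicate block snap25a was at 0.13 (0.125 without mitochondrial genes) and opn1lw1 (ENSDARG00000115464) at -0.037 (-0.038). With voom weights thrb was at -0.025 and that opn1lw1 feature at -0.041; it was at -0.027 with DESeq2 and with RLE scaling and at -0.016 after thinning to 811282 counts. LOC562466 was at -0.0074 with DESeq2 and -0.011 with RLE scaling, and opn1lw2 (ENSDARG00000044861) at 0.062 without a filter. Leaving out 1 library gave -0.27 to 3.32 for OMP, -0.12 to 1.46 for cd74b, -2.82 to 0.12 for hbaa1, -0.065 to 0.48 for opn1lw2 (ENSDARG00000115709), -0.62 to 0.0027 for gngt2a (ENSDARG00000010680), -0.73 to 0.74 for snap25a, -0.18 to 0.29 for thrb, -0.19 to 0.80 for arr3a, -0.42 to 0.82 for LOC562466 and -0.23 to 0.22 for opn1lw1 (ENSDARG00000115464).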
